A study of Mus musculus with 8 samples.

Results

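Glutathione is the main small thiol of kidney cells, and 42 of the 24421 genes in the count tables were taken here by gene symbol as the enzymes that make it, use it and break it down. They were 24 glutathione S-transferases (the Gsta, Gstk, Gstm, Gsto, Gstp, Gstt, Gstz and Mgst families), 8 glutathione peroxidases (Gpx1 to Gpx8) and 10 genes of synthesis, reduction and turnover (Gclc, Gclm, Gss, Gsr, Ggt1, Ggt5, Ggt6, Ggt7, Ggct and Oplah). The symbol rule itself uses no measured value. The question put to these genes was how their RNA on tagged ribosomes differed 9 h after ischemia and reperfusion injury (IRI).

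All mice carried a HoxB7-Cre transgene and the allele Gt(ROSA)26Sor-mCherry-Rpl10a, in which Cre switches on a ribosomal protein with a red fluorescent tag, and all were males of 10 to 16 weeks. IRI mice had the renal artery clamped for 30 min and the kidneys taken 9 h later, and sham mice had the same operation with no clamp (4 mice each, 1 library per mouse). HoxB7-Cre acts in derivatives of the mesonephric duct, so the tagged ribosomes come from the collecting duct but also from other epithelium of that origin, such as that of the ureter. RNA was pulled down with the tag from a whole-kidney lysate, and no sorting of cells came before it.

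Glutathione is built from glutamate, cysteine and glycine in successive steps, of which the glutamate-cysteine ligase reaction is the slow one. Peroxidases spend it to reduce hydrogen peroxide and lipid peroxides, glutathione reductase returns the oxidised form at the cost of NADPH, and transferases couple it to reactive compounds. Outside the cell it is taken apart by gamma-glutamyl transferase, an enzyme of the proximal tubule brush border, and the amino acids return to the cell.

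Counts in genes ran from 13518005 to 27496808 in the IRI libraries and from 25210299 to 29285812 in the sham libraries. Lines counted as not uniquely aligned, which enter no gene, made up 29.5% to 34.3% after IRI and 20.9% to 22.8% in sham. CPM below are counts scaled to library size, with TMM factors applied. Changes are log2 fold changes of IRI over sham from edgeR's quasi-likelihood test, called at an adjusted p under 0.01, with standard errors (SE) from limma-voom. Aqp2, the water channel of principal cells, averaged 960 ± 407 CPM after IRI and 6941 ± 972 CPM in sham (SD, n = 4 mice each). The 8 principal cell markers summed to 1746 to 3545 CPM after IRI and 10597 to 14129 CPM in sham, and all 8 were called lower. The 19 proximal tubule markers summed to 12364 to 24996 CPM after IRI and 9185 to 12342 CPM in sham, with 11 called higher and 0 lower, so RNA of an epithelium outside the HoxB7 lineage was present in both groups beside that of the labelled collecting duct. In such bulk RNA, fewer cells of a type and less RNA per cell cannot be told apart.

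Of the 42 genes, 37 passed the filter on low counts, and 18 of them (48.6%) were called, 9 higher and 9 lower. Over all 14606 tested genes the shares were 49.7% called, 25.1% higher and 24.6% lower, so the number of calls was close to the background. The groups did not overlap in 22 of the 37, against 58.6% of all tested genes. By class, with so few genes that these counts are a description only, of 21 tested transferases 3 were called higher and 7 lower, of 6 peroxidases 2 higher and 0 lower, and of 10 synthesis, reduction and turnover genes 4 higher and 2 lower. The median log2 fold change was -0.40 for transferases, 0.26 for peroxidases and 0.47 for synthesis, reduction and turnover genes, beside -0.01 over all tested genes. The calls of 10 genes held under every alternative setting in which they were tested: Gpx3, Gsr, Ggct and Gsta1 were higher, and Gstm1, Gstm2, Gstm4, Gstt1, Gstt3 and Oplah lower.

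**Figure D1:**
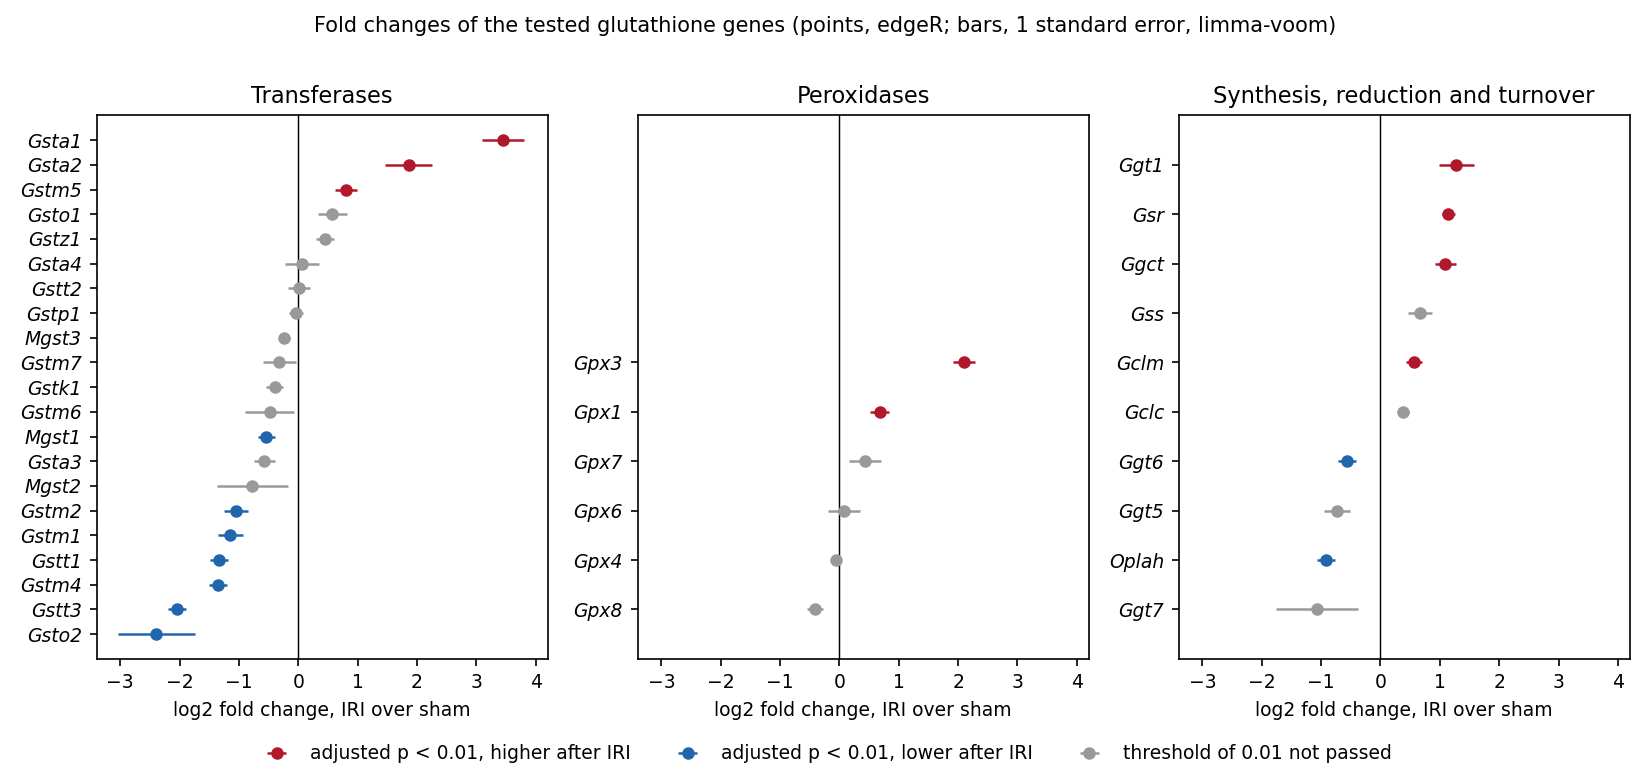
Log2 fold change of IRI over sham for the 37 tested genes in 3 panels (transferases, peroxidases, and synthesis, reduction and turnover). Points are edgeR estimates, bars are 1 SE from limma-voom, red marks a gene called higher, blue one called lower and grey one not called; transferases spread from -2.39 to 3.45, and no peroxidase lies on the lower side with a call.

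The peroxidase class was led by Gpx3, the secreted plasma peroxidase, which the kidney makes (chromosome 11, 54902453 to 54910377 in GRCm38, the assembly of mm10). Gpx3 stood at 4858, 7313, 9213 and 5189 CPM in the IRI libraries, against 1493, 1511, 1474 and 1732 CPM in sham. Every IRI library lay above every sham library, and the lowest of them was far above the highest sham value. Gpx3 was 4.28-fold higher after IRI (log2 fold change 2.097, SE 0.19, edgeR adjusted p = 3.16e-05). Per kilobase of exon it was also the most abundant of the 42 genes in both groups, at 3664 CPM per kb after IRI and 856 CPM per kb in sham, ahead of Gpx1 with 431 CPM per kb after IRI and 269 CPM per kb in sham.

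Gpx1, the cytosolic and mitochondrial peroxidase that reduces hydrogen peroxide, had 682, 572, 783 and 446 CPM after IRI, against 414, 378, 367 and 392 CPM in sham. Its groups were apart too, but the gap between IRI replicate 4 and sham replicate 1 was small. It changed by 0.68 on the log2 scale (SE 0.16, edgeR adjusted p = 0.0046), and the call was lost in 10 of 17 alternative settings, among them without IRI replicate 1 or 3 or without any 1 sham replicate (adjusted p from 0.000116 to 0.0309 over the 17). With Gpx1 lost, 1 peroxidase was called higher.

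The other peroxidases did not pass. Gpx4, which reduces lipid peroxides within membranes and restrains ferroptosis, had 19.5, 17.2, 20.1 and 18.96 CPM after IRI, against 18.3, 21.2, 19.3 and 20.3 CPM in sham. Its groups overlapped (log2 fold change -0.06, SE 0.09, edgeR adjusted p = 0.574), though 34.7% of its 50-base windows also occur in other genes, so reads of those stretches may have gone uncounted. Gpx8, an endoplasmic reticulum member, had 28.0, 23.4, 19.1 and 30.1 CPM after IRI and 30.7, 37.9, 32.0 and 33.6 CPM in sham. All 4 IRI values were below all sham values, yet the log2 fold change of -0.41 had an adjusted p of 0.030 in edgeR. Gpx7, its relative in the same compartment, and Gpx6 gave 0.43 and 0.08 (edgeR adjusted p = 0.181 and 0.803), and Gpx6 reached at most 11.05 CPM and Gpx7 at most 2.18 CPM. Gpx2, known from the gut epithelium, had 12, 4, 0 and 19 counts after IRI and 5, 6, 12 and 8 counts in sham, too few to test, and Gpx5, known from the epididymis, had 0 counts in all 8 libraries.

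**Figure D2:**
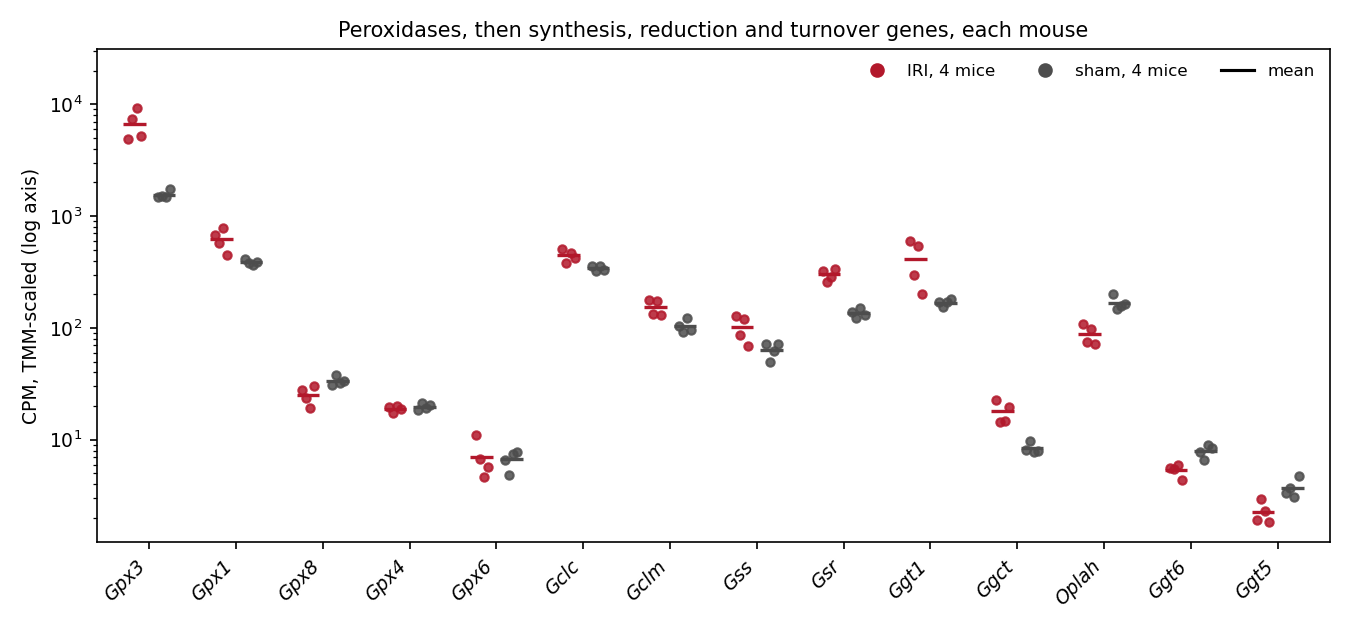
CPM in each library (log axis) of 14 peroxidase and synthesis, reduction and turnover genes, IRI at the left and sham at the right of each pair, with 1 point per mouse and a line at the mean. Gpx3 and Gsr show groups far apart, whereas the Gpx4 points of both groups overlap and the IRI points of Ggt1 reach from 202 to 604 CPM.

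In glutathione synthesis the change was modest. Gclm, the modifier subunit of glutamate-cysteine ligase, had 177, 133, 173 and 130.3 CPM after IRI, against 105, 92.4, 122 and 95.8 CPM in sham. The groups did not overlap, and the log2 fold change was 0.56 (SE 0.13, edgeR adjusted p = 0.00479). The call of Gclm was lost in 8 of 17 settings, among them when IRI replicate 1 or 3, or any 1 sham replicate but the third, was left out (adjusted p from 0.000288 to 0.0309 over the 17).

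Gclc, the catalytic subunit, had 510, 377, 466 and 426 CPM after IRI, against 357, 323, 359 and 333 CPM in sham. Here too the groups did not overlap, but the log2 fold change of 0.38 (SE 0.10, edgeR adjusted p = 0.0112) missed the threshold, and it passed without IRI replicate 2, with DESeq2, with its size factors in edgeR and with a filter of 1 CPM in 4 libraries (adjusted p from 0.000735 to 0.133 over the 17 settings). The ratio of Gclm to Gclc, which no scaling of a library can alter, was 0.347, 0.353, 0.371 and 0.306 after IRI and 0.293, 0.286, 0.341 and 0.288 in sham. IRI replicate 4 fell inside the sham range, and the log2 ratio was -1.54 ± 0.12 after IRI and -1.73 ± 0.12 in sham (SD, n = 4 each). The difference of 0.19 did not pass an exact two-sided permutation test over the 70 splits of the mice (p = 0.0571, where the smallest p possible is 0.0286).

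Gss, which adds glycine in the last step, had 129, 86.1, 120.2 and 68.5 CPM after IRI and 71.8, 49.3, 61.9 and 71.3 CPM in sham. IRI replicate 4 lay within the sham range, and the log2 fold change of 0.67 was not called (SE 0.21, edgeR adjusted p = 0.0176). Exons of other genes on the opposite strand cover 15.4% of its exons, and no source used here gives the strandedness of the counts.

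Gsr, the glutathione reductase, gave the clearest difference among the synthesis, reduction and turnover genes (chromosome 8, 33652523 to 33698163). It had 323, 258, 288 and 337 CPM after IRI, against 140.0, 123, 149.96 and 131 CPM in sham. All IRI mice were above all sham mice with little spread within either group, and the level was 2.21-fold higher (log2 fold change 1.15, SE 0.10, edgeR adjusted p = 2.03e-05).

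Of the turnover genes, Ggt1, the gamma-glutamyl transferase of the brush border, had 604, 298, 535 and 202 CPM after IRI, against 171, 153, 170.0 and 180.3 CPM in sham. The IRI libraries differed from each other far more than the sham libraries did, and replicate 4 was only just above sham. Ggt1 changed by 1.28 on the log2 scale (SE 0.30, edgeR adjusted p = 0.00483), and the call was lost in 8 of 17 settings, among them without IRI replicate 1 or 3 or without any 1 sham replicate (adjusted p from 3.96e-05 to 0.0595 over the 17). Ggct, the cyclotransferase that opens gamma-glutamyl peptides to 5-oxoproline, had 22.9, 14.4, 14.6 and 19.8 CPM after IRI, against 8.17, 9.77, 7.82 and 7.91 CPM in sham. Its groups were apart, with a log2 fold change of 1.09 (SE 0.17, edgeR adjusted p = 0.000411).

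Oplah, the oxoprolinase that turns 5-oxoproline back to glutamate and so follows Ggct in the cycle, went the other way. It had 108, 75.0, 98.3 and 71.8 CPM after IRI, against 201, 148, 157 and 164 CPM in sham. Every IRI library lay below every sham library (log2 fold change -0.92, SE 0.15, edgeR adjusted p = 0.000625), with 11.7% of its exons overlapped by genes on the opposite strand. Ggt6, a relative of Ggt1, was also called lower, with 5.60, 5.45, 5.98 and 4.41 CPM after IRI and 7.72, 6.62, 8.96 and 8.39 CPM in sham (log2 fold change -0.57, SE 0.15, edgeR adjusted p = 0.00928). That call was the least steady, lost in 11 of 17 settings, among them without any 1 IRI replicate or without sham replicate 1, 3 or 4 (adjusted p from 0.00189 to 0.0316 over the 17). Only 2 of the 10 genes were called higher when IRI replicate 1 or 3, or any 1 sham replicate but the third, was left out, and only 1 was called lower when any 1 replicate but the second of either group was left out. Ggt5, which acts on leukotriene C4, lay below sham in every IRI library at -0.73 without passing (edgeR adjusted p = 0.0154), and Ggt7 gave -1.07 (edgeR adjusted p = 0.203), with 1 sham library far above the others.

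Between the groups, the proximal tubule markers moved beside Gpx3 and Ggt1, both of which that epithelium expresses strongly. Slc34a1, its phosphate carrier, had 2870, 2208, 3536 and 1802 CPM after IRI, against 621, 544, 425 and 723 CPM in sham (log2 fold change 2.17, edgeR adjusted p = 5.44e-05). Lrp2, its endocytic receptor, had a log2 fold change of -0.45 and was not called. Within the IRI group the summed proximal markers were at 23401, 15471, 24996 and 12364 CPM. Ggt1 was likewise highest in replicates 1 and 3, whereas Gpx3 was lowest in replicate 1. Gpx1, Gclm, Gss, Gstm5 and Gstz1 were also highest in replicates 1 and 3 and lowest in replicate 4. So were Oplah and Ggt6, both called lower, whereas Gsr and Gsta2 were highest in replicate 4. The part of proximal tubule RNA in the differences of any of these genes was not tested. Summed neutrophil markers were at 52.4 to 148 CPM after IRI and 2.37 to 5.26 CPM in sham, with 6 of 6 tested markers called higher, and their part was not tested either.

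**Figure D3:**
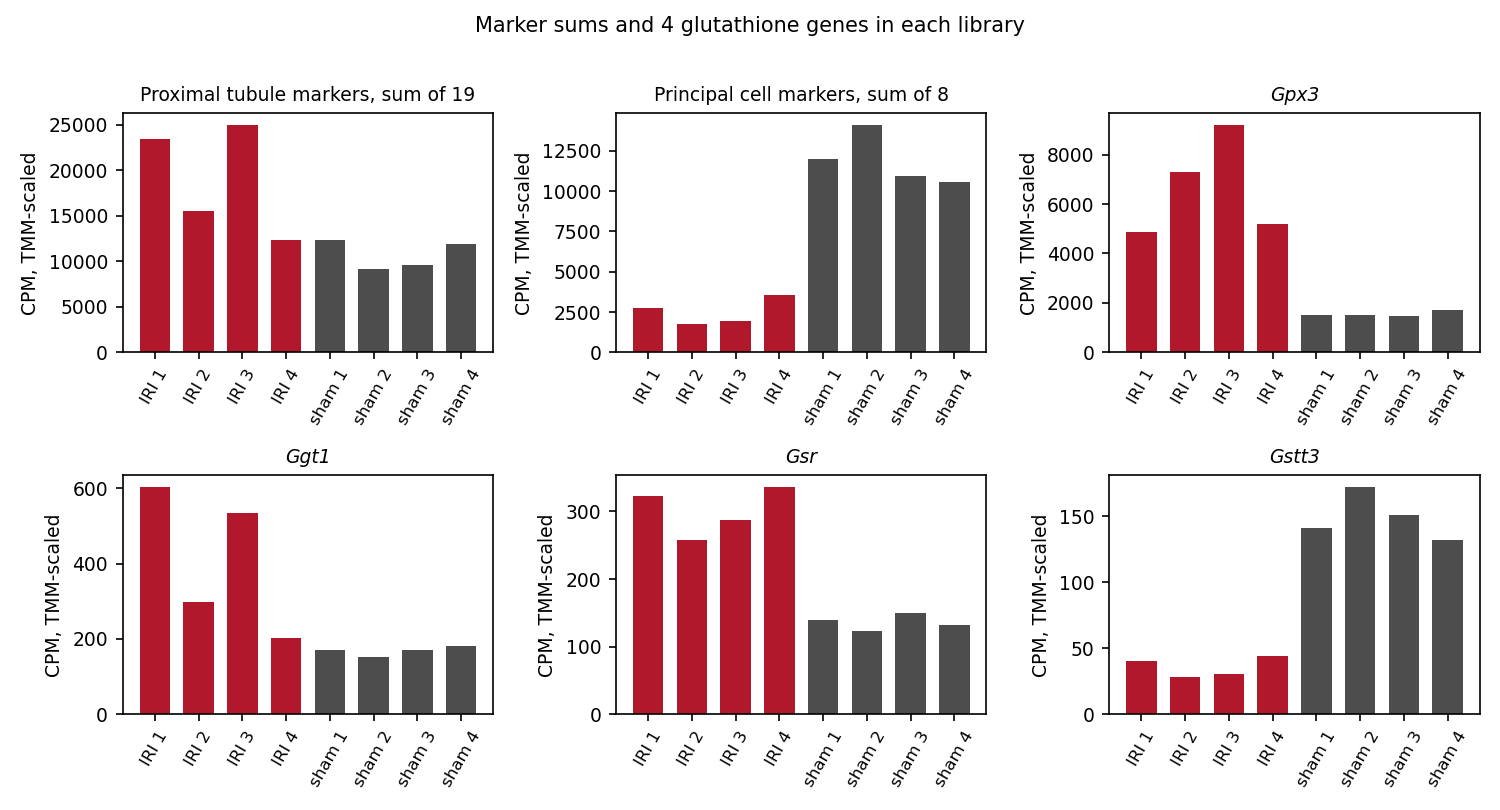
CPM in each of the 8 libraries (bars from 0, IRI at the left, sham at the right) of the summed proximal tubule markers, the summed principal cell markers, Gpx3, Ggt1, Gsr and Gstt3. Gpx3, Ggt1 and Gsr are higher in all 4 IRI libraries than in any sham library, and the principal cell sum and Gstt3 are lower in all 4. The proximal sum is higher too, but IRI replicate 4 (12364 CPM) is nearly level with sham replicate 1 (12342 CPM).

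Among the transferases the theta and mu classes held most of the lower calls. Gstt3, a theta transferase that works on small halogenated and other electrophilic compounds, had the lowest adjusted p of the 37 tested genes (chromosome 10, 75774115 to 75781414). It had 40.2, 28.6, 30.8 and 44.6 CPM after IRI, against 141, 172, 151 and 132 CPM in sham. The groups were wide apart, and the log2 fold change was -2.05 (SE 0.15, edgeR adjusted p = 6.32e-06). A same-strand gene, Gm20441, overlaps 13.6% of its exons. Gstt1, its neighbour on chromosome 10, had 84.4, 64.9, 70.4 and 74.6 CPM after IRI, against 176, 245, 150.5 and 173 CPM in sham. It fell in the same manner (log2 fold change -1.34, SE 0.15, edgeR adjusted p = 6.8e-05). Gstt2, the third expressed gene of that cluster, had 48.7, 31.2, 48.8 and 28.4 CPM after IRI and 37.3, 39.2, 45.5 and 34.2 CPM in sham, with full overlap and a log2 fold change of 0.01 (edgeR adjusted p = 0.967). Gstt4 had 0 counts in every IRI library and 0, 1, 1 and 0 counts in sham. The 8 principal cell and 7 intercalated cell markers were all called lower in the same comparison, the intercalated list summing to 793 to 1304 CPM after IRI and 2894 to 3572 CPM in sham, and their part in the lower transferase levels was not tested.

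The mu class lies in 1 cluster on chromosome 3 and split by gene. Gstm1, by mean CPM per kilobase the most abundant transferase in both groups, had 216, 119, 123 and 189 CPM after IRI, against 426, 355, 352 and 303 CPM in sham. No IRI library reached the sham range (log2 fold change -1.15, SE 0.21, edgeR adjusted p = 0.000983). Gstm2, next to it, had 116, 66.8, 91.9 and 132 CPM after IRI, against 230.4, 239, 181 and 195 CPM in sham (log2 fold change -1.06, SE 0.20, edgeR adjusted p = 0.00122). Gstm4, at a low level, had 3.88, 3.66, 2.68 and 2.94 CPM after IRI, against 8.47, 8.70, 8.55 and 7.94 CPM in sham (log2 fold change -1.35, SE 0.15, edgeR adjusted p = 6.49e-05). These 3 genes fell with no overlap, and 18.9% of the 50-base windows of Gstm1 are shared with other genes. In sham the levels per kilobase of Gstm1 overlapped those of Gpx1, and Gstm2 overlapped Gstt1, so the order among those neighbours was not resolved.

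Gstm5, at the far end of the same cluster, was higher, with 46.1, 41.9, 48.6 and 26.6 CPM after IRI, against 22.8, 26.4, 20.9 and 23.3 CPM in sham. IRI replicate 4 was within 1 CPM of sham replicate 2. The log2 fold change of 0.80 (SE 0.18, edgeR adjusted p = 0.00308) lost its call in 6 of 17 settings, among them without sham replicate 1, 3 or 4 (adjusted p from 7.63e-05 to 0.0289 over the 17), and 13.9% of its exons are overlapped by a gene on the opposite strand. Gstm6 and Gstm7 gave -0.49 and -0.32 and were not called (edgeR adjusted p = 0.329 and 0.355). Gstm3 had 0 counts in every IRI library and 3, 2, 5 and 0 counts in sham (10 over the 4 libraries), too few to test. A floor of 3 counts over the IRI group would put it 2.21-fold lower, with the counting error of the sham counts left out.

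**Figure D4:**
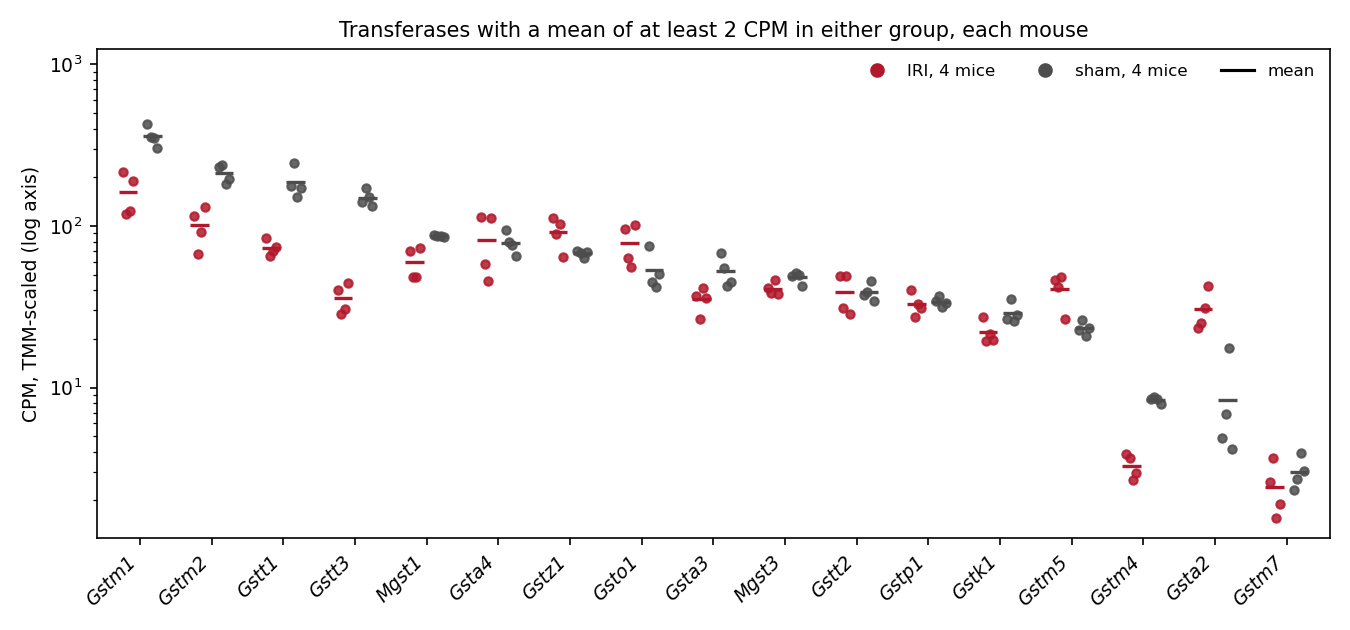
CPM in each library (log axis) of the 17 transferases with a mean of at least 2 CPM in either group, IRI at the left and sham at the right of each pair, with 1 point per mouse and a line at the mean. Gstm1, Gstm2, Gstm4, Gstt1 and Gstt3 sit lower in every IRI library, Gsta2 and Gstm5 higher, and the points of Gstt2, Gsta4 and Gstp1 overlap.

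In the alpha class, Gsta1 and Gsta2, its least abundant members in sham, were called higher. Gsta1 had 24, 9, 17 and 20 counts after IRI, against 3, 2, 3 and 1 counts in sham. These are few reads, 70 after IRI and 9 in sham, a ratio per library size of 11.7 with an exact 95% interval of 5.83 to 26.7 for counting error alone (log2 fold change 3.45, SE 0.36, edgeR adjusted p = 3.49e-05). Of its 50-base windows, 90.5% also occur in Gsta2 and other copies, so which copy the reads came from is uncertain. Gsta2 had 23.3, 25.2, 31.2 and 42.3 CPM after IRI, against 4.89, 6.86, 17.7 and 4.14 CPM in sham. Sham replicate 3 was well above the other sham libraries but below all IRI libraries. Gsta2 changed by 1.86 on the log2 scale (SE 0.40, edgeR adjusted p = 0.00491), and by 2.51 without sham replicate 3. That call did not hold once IRI replicate 3 or 4, or sham replicate 1, 2 or 4, was left out (adjusted p from 2.64e-05 to 0.0174 over 17 settings), and 49.8% of its windows are shared with Gsta1 and other copies. Without sham replicate 1 or 4, 1 transferase was called higher.

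Gsta4, which detoxifies the lipid peroxidation product 4-hydroxynonenal, had 113, 58.2, 45.4 and 112 CPM after IRI and 94.9, 79.7, 76.0 and 65.4 CPM in sham. IRI replicates 1 and 4 were above and 2 and 3 below every sham library (log2 fold change 0.06, edgeR adjusted p = 0.865). Gsta3 had 37.1, 26.6, 41.2 and 35.8 CPM after IRI, against 67.9, 54.6, 42.2 and 45.1 CPM in sham, below sham in every IRI library but not called (log2 fold change -0.57, edgeR adjusted p = 0.0169).

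Among the remaining transferases Gsto2 and Mgst1 were called lower. Gsto2, an omega transferase that reduces dehydroascorbate, had 6, 3, 0 and 7 counts after IRI, against 23, 40, 46 and 19 counts in sham. Summed, that is 16 counts after IRI and 128 in sham, 5.31-fold lower after IRI for library size. The exact 95% interval was 3.15 to 9.58 for counting error alone, which leaves out the spread between mice. The log2 fold change was -2.39 (SE 0.66, edgeR adjusted p = 0.00397). Gsto2 lost its call in 5 of 16 settings, among them without IRI replicate 1 or sham replicate 2 or 3 (adjusted p from 0.000151 to 0.0272 over the 16). Its neighbour Gsto1 had 95.5, 63.2, 55.6 and 102 CPM after IRI and 75.7, 45.2, 41.8 and 50.2 CPM in sham, not called (log2 fold change 0.57, edgeR adjusted p = 0.0622). Mgst1, a transferase of the endoplasmic reticulum and outer mitochondrial membrane, had 69.6, 48.5, 48.3 and 72.9 CPM after IRI, against 88.3, 87.1, 86.9 and 85.8 CPM in sham. Sham libraries were nearly level and all above IRI (log2 fold change -0.54, SE 0.14, edgeR adjusted p = 0.00769), with the call lost in 8 of 17 settings, among them without IRI replicate 2 or 3 or without any 1 sham replicate (adjusted p from 0.00113 to 0.0307 over the 17).

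Gstz1, an isomerase of tyrosine breakdown, had 112, 89.8, 103 and 64.3 CPM after IRI and 70.05, 68.1, 63.7 and 68.6 CPM in sham (log2 fold change 0.45, edgeR adjusted p = 0.0256). IRI replicate 4 was within the sham range, and genes on the opposite strand overlap 12.2% of the Gstz1 exons. Mgst3, Gstk1 of mitochondria and peroxisomes, and Mgst2 gave -0.23, -0.40 and -0.77 and were not called (edgeR adjusted p from 0.0347 to 0.259). Gstp1, the pi class enzyme, had 40.3, 27.5, 32.8 and 31.1 CPM after IRI and 34.5, 36.8, 31.5 and 33.1 CPM in sham (log2 fold change -0.04, edgeR adjusted p = 0.767). Of its windows 33.7% are shared with Gstp2 and a pseudogene, and Gstp2 itself had at most 6 counts in any library.

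The set has several genes that the transcription factor Nrf2 is known to control through antioxidant response elements, so the promoters of the called and uncalled genes were read for the letters TGACNNNGC on both strands. RefSeq windows (GRCm38.p6) of 250 bases before to 50 after a start were given for 36 of the 42 genes. Gclc, Gsr, Oplah, Ggt5, Gsta4 and Gstt2 had no window and were not searched. Of the 36 genes, 7 (19.4%) held the letters, beside 14.0% of 27025 genes. A gene can have several windows, and by window the shares were 17.6% of 51 and 12.4% of 32851. Letters further from a start were not searched. Of the 7, Gclm, Ggct, Ggt1 and Gstm5 were called higher, Mgst1 lower, and Gsta3 and Gstm7 were not called. Over all tested genes 25.1% were called higher and 24.6% lower. The shares called among all genes with the letters were not tested, so these few calls are a description only. The AP-1 letters TGANTCA, which can share bases with the first motif, were in 4 of 36 (Gstm5, Gstp1, Gstp2 and Mgst2, 11.1%), beside 8.97% of all genes. By window the AP-1 shares were 7.84% and 7.81%. In Gstm5, the gene with both motifs, the matches lay apart. The calls of Gclm, Ggt1 and Mgst1 were each lost in 8 of 17 settings, and that of Gstm5 in 6 of 17. Matches of Ggt1 are not shown. The 4 stretches below are shown because their genes were called in opposite directions while holding the same letters, with Mgst1 alone lower. Each is printed 5′ to 3′ along its gene with the matched letters, or their reverse complement, in capitals.
Gclm, higher after IRI, chr3:122245398-122245456 on the plus strand: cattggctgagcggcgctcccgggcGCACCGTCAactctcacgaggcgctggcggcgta
Ggct, higher after IRI, chr6:54993008-54993066 on the minus strand: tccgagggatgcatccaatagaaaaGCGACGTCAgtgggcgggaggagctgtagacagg
Gstm5, higher after IRI, chr3:107895787-107895845 on the plus strand: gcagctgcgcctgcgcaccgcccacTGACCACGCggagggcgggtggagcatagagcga
Mgst1, lower after IRI, chr6:138140446-138140504 on the plus strand: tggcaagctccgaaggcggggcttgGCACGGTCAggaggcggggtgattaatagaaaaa
A match is a description of these letters, not evidence of binding.

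Around these enzymes, 37 partner genes for cysteine supply, peptide breakdown, glutaredoxins, glyoxalases, carriers, NADPH supply, other glutathione-using enzymes and regulators were all tested, with 17 called higher and 3 lower (54.1%, beside 49.7% of all genes) and a median log2 fold change of 0.29. Slc7a11, the cystine importer, had 18.6, 22.5, 29.0 and 19.9 CPM after IRI, against 1.01, 0.637, 1.71 and 0.702 CPM in sham. It was the largest change of the list (log2 fold change 4.45, SE 0.33, edgeR adjusted p = 4.46e-06), and Slc3a2, the heavy chain that carries it to the membrane, was higher by 1.99 (edgeR adjusted p = 1.49e-06). Slc1a1 and Slc7a9, further carriers that bring in cysteine or cystine, had log2 fold changes of 1.56 and 1.52 (edgeR adjusted p = 0.000167 and 0.000187). The part of proximal tubule RNA in the changes of the partner genes was not tested.

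Chac1, which cleaves glutathione inside the cell, had 11.5, 24.8, 22.2 and 10.05 CPM after IRI, against 1.19, 0.495, 5.73 and 2.25 CPM in sham. Chac1 changed by 2.80 on the log2 scale (SE 0.64, edgeR adjusted p = 0.00393). Its call was lost once IRI replicate 2 or 3, or sham replicate 1 or 4, was left out. The numbers in the library names as a covariate also removed that call. Hpgds, a sigma class transferase that makes prostaglandin D2, was low in both groups. It averaged 1.96 ± 0.69 CPM after IRI and 0.405 ± 0.144 CPM in sham (SD, n = 4 each), with a log2 fold change of 2.27 (edgeR adjusted p = 0.000508).

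Of 6 genes for NADPH supply, 2 were called higher, 2 lower and 2 not called, beside 25.1% higher and 24.6% lower over all tested genes. Idh2, the mitochondrial NADPH-making isocitrate dehydrogenase, had 197, 198, 229.8 and 164 CPM after IRI, against 357, 401, 342 and 387 CPM in sham, a log2 fold change of -0.92 (edgeR adjusted p = 0.000103). G6pdx, the first enzyme of the pentose phosphate pathway, had 53.7, 44.7, 40.5 and 51.6 CPM after IRI, against 61.8, 64.8, 66.0 and 61.7 CPM in sham, a log2 fold change of -0.41 (edgeR adjusted p = 0.00379). The G6pdx call was lost without IRI replicate 2 or sham replicate 2. It was also lost with a replicate block and with the numbers in the library names as a covariate. Both genes were lower in all 4 IRI libraries. The 2 called higher, named after their values were seen, were Idh1, the cytosolic isocitrate dehydrogenase (log2 fold change 0.76, edgeR adjusted p = 0.00321), and Pgd, of the pentose phosphate pathway (log2 fold change 0.50, edgeR adjusted p = 0.0018).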

How the data were processed

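RNA bound to tagged ribosomes was sequenced from 4 IRI and 4 sham mice. The authors depleted ribosomal RNA, aligned reads to mm10 (TopHat2 2.1.1), counted them per gene with HTSeq, deposited these raw counts and tested them with DESeq2. No source used here gives the gene annotation, the overlap mode or the strandedness of the counts. Lines that name no gene (43.3% to 52.3% after IRI, 33.3% to 37.7% in sham) stayed out of library sizes and tests.

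The deposited counts were fitted in edgeR 4.0.16 (R 4.3.3) with TMM factors and filterByExpr (minimum count 10, total 15), and p-values of the quasi-likelihood test were adjusted by Benjamini-Hochberg over 14606 genes. CPM are scaled by TMM. Standard errors are those of limma-voom (limma 3.58.1). The biological coefficient of variation was 0.206. The fit was tested on simulated data, for which no value is given here. Alternatives were other scalings and filters, DESeq2 1.42.0, voom, a replicate block, the series of numbers in the submitted library names as a covariate, a threshold of 0.05 and each library left out. Positions, exon lengths, overlaps and shared windows of 50 bases came from a GRCm38 annotation.

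The 42 genes and the marker and partner lists were chosen with earlier results of these data known. Values per library are given for called members and those averaging at least 50 CPM in a group, and for Gpx4, Gpx8, Gstt2 and Gstp1, added after their values were seen. Partner genes named are the called ones with the greatest fold change, up to 6 per direction, with Slc7a11, Chac1, Glrx, G6pdx and Nfe2l2. Markers called were 8 lower of 8 for principal cells, 7 lower of 7 for intercalated cells, 11 higher of 19 for proximal tubule, 0 of 5 for thick limb and distal tubule, 2 lower of 6 for urothelium, 6 higher of 6 for neutrophils, 1 higher of 7 for macrophages, 3 higher of 5 for endothelium, 1 higher of 6 for fibroblasts and pericytes, and 1 higher of 1 for erythroid cells. For these, 4 hemoglobin genes were at 0 in all libraries. Why they were at 0 was not tested, so this does not show that red cell RNA was absent.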

Additional observations from a re-analysis of the deposited data

Results flagged for a closer look

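A check for single outlying libraries covered the 37 tested genes of the set and the partner genes Slc7a11, Chac1, Glrx, G6pdx and Nfe2l2. In the sham group, replicate 4 stood apart from the other 3 mice in 2 of these 42 genes. Gpx3 was at 1732 CPM there and between 1474 and 1511 CPM in the other sham libraries, and all 4 IRI libraries were far above it. Ggt7, a little-studied relative of gamma-glutamyl transferase, was at 4.62 CPM there and between 0.597 and 1.17 CPM in the others, and without that library its log2 fold change was 0.024 in place of -1.07. Both gaps pass Dixon's 95% limit for 4 samples, and 84 groups were tested, of which chance alone flags about 1 in 20.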

How the results depend on the processing

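Scaling by total counts moved the median log2 fold change over all genes by -0.19 and gave 2784 genes higher and 4912 lower, and upper quartile factors moved it by -0.12 with 3092 higher and 4393 lower, beside 3667 higher and 3595 lower with TMM. Transferases were 2 higher and 10 lower with total counts and 3 and 9 with upper quartile factors. Under both, 1 peroxidase was called higher and 1 lower, and partner genes called lower were 7 and 5. At an adjusted p under 0.05, 1 peroxidase and 6 partner genes were lower. With DESeq2 size factors or no filter on low counts, 1 synthesis, reduction and turnover gene was lower. With the number series as a covariate, which holds 3 IRI mice and 1 sham mouse on 1 side and the reverse on the other, 1 peroxidase was called higher, and of the synthesis, reduction and turnover genes 2 were higher and 1 lower.

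Leaving out 1 library gave 3179 to 3550 genes higher and 3169 to 3479 lower, 1 to 3 transferases higher and 5 to 7 lower, 1 to 2 peroxidases higher and 0 lower, 2 to 5 synthesis, reduction and turnover genes higher and 1 to 2 lower, 13 to 17 partner genes higher and 2 to 4 lower, and a Gclm to Gclc difference of 0.15 to 0.25. The 5 genes whose sign changed were called in none of these fits. Gpx6 (0.08) was -0.11 with total counts, -0.032 with upper quartile factors, -0.0100 with the number series, and -0.23 to 0.24 without 1 library. Gsta4 (0.06) was -0.13 with total counts, -0.055 with upper quartile factors, -0.024 with voom and -0.14 to 0.26 without 1 library. Gstt2 (0.01) was -0.18 with total counts, -0.11 with upper quartile factors, -0.0056 without a filter, -0.018 with voom, -0.14 with the number series and -0.11 to 0.14 without 1 library. Without 1 library Ggt7 ran from -1.36 to 0.024 and Gstp1 from -0.16 to 0.035. The cause of these changes was not tested.

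The replicate block called 5582 genes, with 1 peroxidase higher and 1 synthesis, reduction and turnover gene lower, and gave -0.039 for Gsta4 and -0.026 for Gstt2. No source used here says whether its numbers pair mice. Deviations of same-numbered libraries correlated at -0.07, -0.53, -0.34 and -0.36, and no library correlated best with its own number. The deviations were centred within each group of 4, so these correlations cannot settle whether mice were paired. Few counts limit what can be said of the 5 untested genes and of others such as Gsta1, Gsto2, Gstm6 and Mgst2. The cause of the few counts was not tested.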

Other observations

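Glutaredoxins and regulators were also among the partner genes, with 1 of 4 glutaredoxins called higher and, of 3 regulators, 1 higher and 1 lower. Over all tested genes 25.1% were called higher and 24.6% lower, so such small counts are a description only. Glrx, the cytosolic glutaredoxin that uses glutathione to restore protein thiols, had 39.8, 30.4, 36.6 and 31.1 CPM after IRI, against 13.02, 21.8, 16.9 and 15.2 CPM in sham, with no overlap (log2 fold change 1.04, SE 0.16, edgeR adjusted p = 0.000441). Among regulators, Nfe2l2, which encodes Nrf2, had 397, 261, 320 and 398 CPM after IRI and 384, 418, 370 and 379 CPM in sham, and its groups overlapped (log2 fold change -0.17, edgeR adjusted p = 0.297). Keap1, which marks Nrf2 for degradation, had 43.2, 41.6, 42.2 and 47.5 CPM after IRI, against 64.9, 64.8, 68.4 and 62.0 CPM in sham (log2 fold change -0.58, edgeR adjusted p = 8.56e-05). Bach1, a repressor at the same elements, is outside the naming rule and was chosen after its values were seen. It had 147, 187, 217 and 124 CPM after IRI, against 78.5, 49.2, 58.8 and 63.4 CPM in sham (log2 fold change 1.43, edgeR adjusted p = 0.000193).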
